A study of Homo sapiens with 8 samples.

Results

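The histone genes described here are the clustered and solitary genes that encode the linker histone H1 and the core histones H2A, H2B, H3 and H4. They were taken from the deposited gene table by symbol: the symbol begins with H1-, H2AC, H2BC, H3C or H4C followed by digits and has no pseudogene ending. The genes described are 71 of the 34415. One of them, H1-10-AS1, is an antisense transcript and not a histone gene, and it is described apart, which leaves 70 histone genes: 9 of type H1, 16 of H2A, 18 of H2B, 13 of H3 and 14 of H4. The rule reads names and no measured value.

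TeloHAEC is an endothelial line made from human aortic endothelium and immortalised with telomerase, and its RNA was sequenced in 8 libraries. The 4 control libraries and the 4 estradiol libraries carry the genotype label WT, and all 8 cultures had palmitic acid in the medium, as a model of a setting prone to atherosclerosis. The titles place the second group under estradiol, the main ovarian estrogen, while its treatment tag names only the palmitic acid. The sources used here give no doses and no time of exposure. No label says that the replicates were separate cultures, so a p-value here speaks only of how far libraries scatter, and that scatter may be technical.

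Chromatin wraps DNA around octamers of the 4 core histones, and a linker histone H1 binds where the DNA enters and leaves. Most genes of these families are replication-dependent: they are transcribed in S phase, they mostly lack introns, and their mRNAs end in a short 3′ hairpin instead of a poly(A) tail. The hairpin is bound by SLBP and cut downstream with the help of the U7 small nuclear ribonucleoprotein. H1-10 is a replication-independent member, whose mRNA is polyadenylated. Libraries that select poly(A) RNA therefore see few of the hairpin-ended messages. The labels name the library kit but do not say whether poly(A) RNA was selected, and the part this has in the levels below was not tested.

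The hairpin is shown because it marks the replication-dependent messages, and H1-10, the highest of the genes described, lacks it in its annotated model. A hairpin was searched for in the transcript models of GENCODE v29 on the transcript strand as 16 bases: an arm GGNNNT, a loop TNTN and an arm ANNNCC that pairs fully with the first. It was found in 27 of the 70 histone genes, against 83 of all 58676 genes of that annotation (0.141%). In the lines below the capitals are the paired arms and the lower-case letters are the loop. The first form was found in H2AC6, H2BC15 and H2BC21, which are among the higher core genes, and the others in H3C6, H4C8, H4C14 and H2BC4.
H2AC6, H2BC15 and H2BC21: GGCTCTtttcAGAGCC
H3C6: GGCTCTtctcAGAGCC
H4C8: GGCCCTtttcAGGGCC
H4C14: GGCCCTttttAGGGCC
H2BC4: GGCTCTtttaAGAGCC

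A model that runs on past its hairpin has room for a later poly(A) site. In 18 members the longest such model ran on for at least 200 bases after the hairpin: 1128 bases in H2AC6, 377 in H2BC15, 1729 in H2BC21, 1655 in H4C8 and 1862 in H3C6. In 9 members the model ended nearer to the hairpin. In 11 members, H1-10 among them, a model with untranslated sequence held no such hairpin. The 11 also held H1-4 and core genes such as H2AC11, H2BC11 and H4C3, so a model without the hairpin does not set H1-10 apart. In 32 members the annotation had the coding part alone, so the end could not be read. The median level was 0.1995 FPKM for the 18 members that run on and 0.2006 FPKM for the 9 that end near the hairpin. FPKM is fragments scaled for the counted gene length and for the library's total, so it can be compared between genes. The counted length was 519 bases in H2AC6 and 409 in H4C8, less than the stretch past the hairpin in their models. In H2BC21 and H3C6 it was longer, at 2224 and 2700 bases. The medians therefore cannot show whether messages that run on were present. The 18 held 3 members with a mean of at least 1 FPKM (H2AC6, H2BC15 and H2BC21) and the 9 held none.

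The promoters show what members of a type share in sequence. RefSeq promoters of build GRCh38.p14, from 250 bases before to 50 bases after the start, matched 64 of the 70 members. They were searched on both strands for the octamer ATTTGCAT, the letters bound by OCT1, for CCAAT, for TATAAA and for AAACACA, which is called the H1 box. The octamer was in 14 of 17 H2B promoters (82.4%) and in 11 of 15 H2A promoters (73.3%), against 1.8% of all 27305 promoters. It was in 9.1% of H3 promoters and in none of the H1 or H4 promoters. The H1 box was in 7 of 9 H1 promoters (77.8%), against 5.8% of all promoters. CCAAT was in every H2A, H2B and H3 promoter, in 88.9% of H1 and in 25.0% of H4 promoters, against 35.7% of all. TATAAA was in 80% of H2A, 72.7% of H3, 70.6% of H2B, 50% of H4 and 44.4% of H1 promoters, against 12% of all. A match is a description of letters and not of a bound site.

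**Figure D1:**
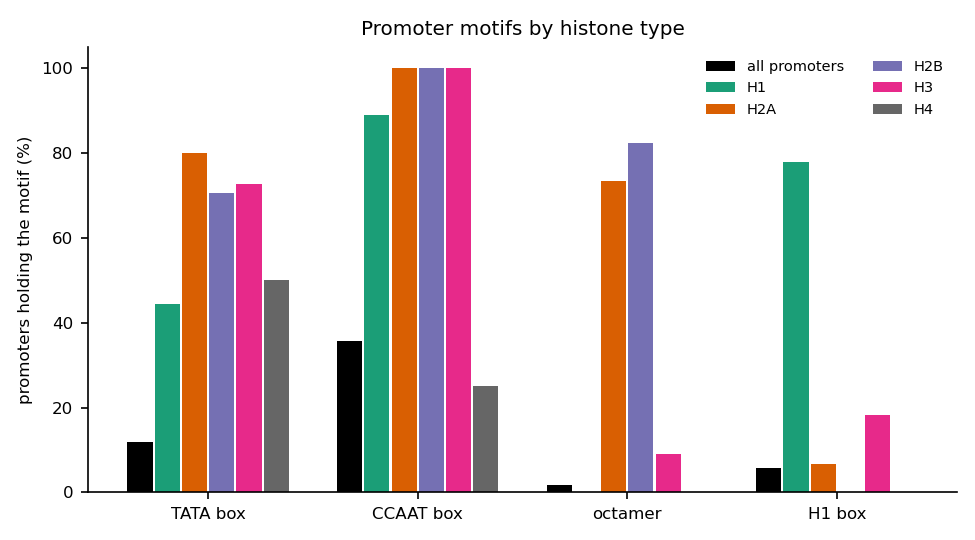
Share of promoters (y axis, percent) that hold each of 4 motifs on either strand, for all 27305 RefSeq promoters (black) and for each histone type. The octamer stood at 82.4% of H2B and 73.3% of H2A promoters against 1.8% of all, and the H1 box at 77.8% of H1 promoters against 5.8%.

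The 250 bases before the start are printed for 4 members, with every motif match in capitals. Among the genes described these are the highest H2A gene, the highest H2B gene, the highest H1 gene with an H1 box, and H1-10, the highest of the genes described. H2AC6 lies at chr6:26123922-26124171 on the plus strand, H2BC12 at chr6:27146859-27147108 on the minus strand, H1-2 at chr6:26056471-26056720 on the minus strand and H1-10 at chr3:129316287-129316536 on the minus strand, all by RefSeq on GRCh38.p14. The sources used here do not name the build behind the deposited values.
H2AC6: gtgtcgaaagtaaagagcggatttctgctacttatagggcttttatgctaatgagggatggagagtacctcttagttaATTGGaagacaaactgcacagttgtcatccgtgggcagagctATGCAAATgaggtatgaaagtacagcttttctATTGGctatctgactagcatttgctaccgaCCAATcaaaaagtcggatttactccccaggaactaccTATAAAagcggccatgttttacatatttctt
H2BC12: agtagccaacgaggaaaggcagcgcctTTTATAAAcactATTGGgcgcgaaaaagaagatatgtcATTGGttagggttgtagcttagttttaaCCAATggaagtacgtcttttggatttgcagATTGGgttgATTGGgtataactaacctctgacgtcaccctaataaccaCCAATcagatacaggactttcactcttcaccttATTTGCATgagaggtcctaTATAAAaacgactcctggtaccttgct
H1-2: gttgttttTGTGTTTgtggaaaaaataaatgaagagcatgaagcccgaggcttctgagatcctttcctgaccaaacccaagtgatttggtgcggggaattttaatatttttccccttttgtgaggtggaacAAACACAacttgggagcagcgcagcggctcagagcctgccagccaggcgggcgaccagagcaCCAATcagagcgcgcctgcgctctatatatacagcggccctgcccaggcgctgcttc
H1-10: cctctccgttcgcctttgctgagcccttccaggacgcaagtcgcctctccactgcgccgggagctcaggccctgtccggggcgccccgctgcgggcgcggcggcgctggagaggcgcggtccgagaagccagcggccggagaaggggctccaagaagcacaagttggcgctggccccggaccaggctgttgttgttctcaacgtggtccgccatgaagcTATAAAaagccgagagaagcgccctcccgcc

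The H2AC6 window held 5 matches, with the octamer as its reverse complement, and the H2BC12 window held 10, with the octamer as spelled. H1-2 had 3 matches, 2 of them H1 boxes, and H1-10 had a single TATAAA. Many H2A and H2B genes stand head to head, so their windows are partly the same DNA: 10 H2A and H2B pairs had starts within 1000 bases of each other. The starts of H2BC4 and H2AC6 were 246 bases apart, those of H2AC15 and H2BC15 194, and those of H2BC21 and H2AC20 236. The levels within such pairs differed in some and not in others. H2AC6 averaged 2.78 FPKM and H2BC4 0.563, H2BC15 averaged 2.30 and H2AC15 0.477, and H2BC21 averaged 1.13 and H2AC20 0.493. H2BC8 and H2AC8 were nearly level at 0.237 and 0.239, and H2AC1 and H2BC1 were both at 0.

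The reads behind the values could be recovered, because each FPKM value is a whole multiple of what 1 read is worth in its library. The libraries held 33421051 to 39899258 such reads in genes. At the median counted length of the histone genes, 494 bases, 1 read was worth 0.0507 to 0.0605 FPKM. The counted length equalled the RefSeq gene length for 52 of the 60 members above 0, among them H2AC6 at 519 bases and H2BC21 at 2224. All 10 endothelial markers had a mean of at least 1 FPKM, with sums of 487 to 673 in the control and 489 to 638 in the estradiol libraries. None of 5 fibroblast markers did (sums of 0.183 to 0.240 and 0.155 to 0.253, with LUM at 0), 4 of 6 epithelial markers did, led by KRT19 (sums of 93.5 to 144 and 95.2 to 131), and 1 of 5 leukocyte markers did, CD68, with CD3E at 0 (sums of 33.4 to 45.3 and 31.1 to 42.8). The part of other cells in the histone levels was not tested.

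Among the 70 genes described, linker RNA outweighed core RNA. H1-10 averaged 48.6 FPKM, and the highest core gene of the 61, H2BC12, averaged 5.45. The 9 H1 genes held 71.8% of the summed FPKM of the 70, and the 69 genes other than H1-10 held 31.6%. The sum over the 70 was 72.2 ± 15.6 FPKM in the control and 69.7 ± 7.49 in the estradiol libraries (SD, n = 4 each), or 0.0205% of all FPKM. Of the 70 genes, 21 were above 0 in all 8 libraries, 39 in some of them and 10 in none. By mean level, 6 reached 1 FPKM, 23 lay between 0.1 and 1, and 31 were above 0 but below 0.1. In 35 members the 8 libraries together held 10 reads or fewer. In bulk RNA, fewer cells in S phase and less histone RNA per cell cannot be told apart.

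The 10 genes with no read were H1-1, H1-7, H2AC1, H2AC12, H2AC7, H2BC1, H2BC10, H2BC12L, H3C12 and H4C7. A limit of 3 reads over the 8 libraries put each of them under 0.00751 (H1-7) to 0.0253 FPKM (H4C7), for counting error only. H1-1, H1-7, H2AC1 and H2BC1 are best known from lymphoid or testicular cells. By the annotated models, H2AC7 and H2BC12L share nearly all of their sequence with other genes, and H3C12 a part. Reads that fit more than 1 gene could have been set aside for them by the counting.

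**Figure D2:**
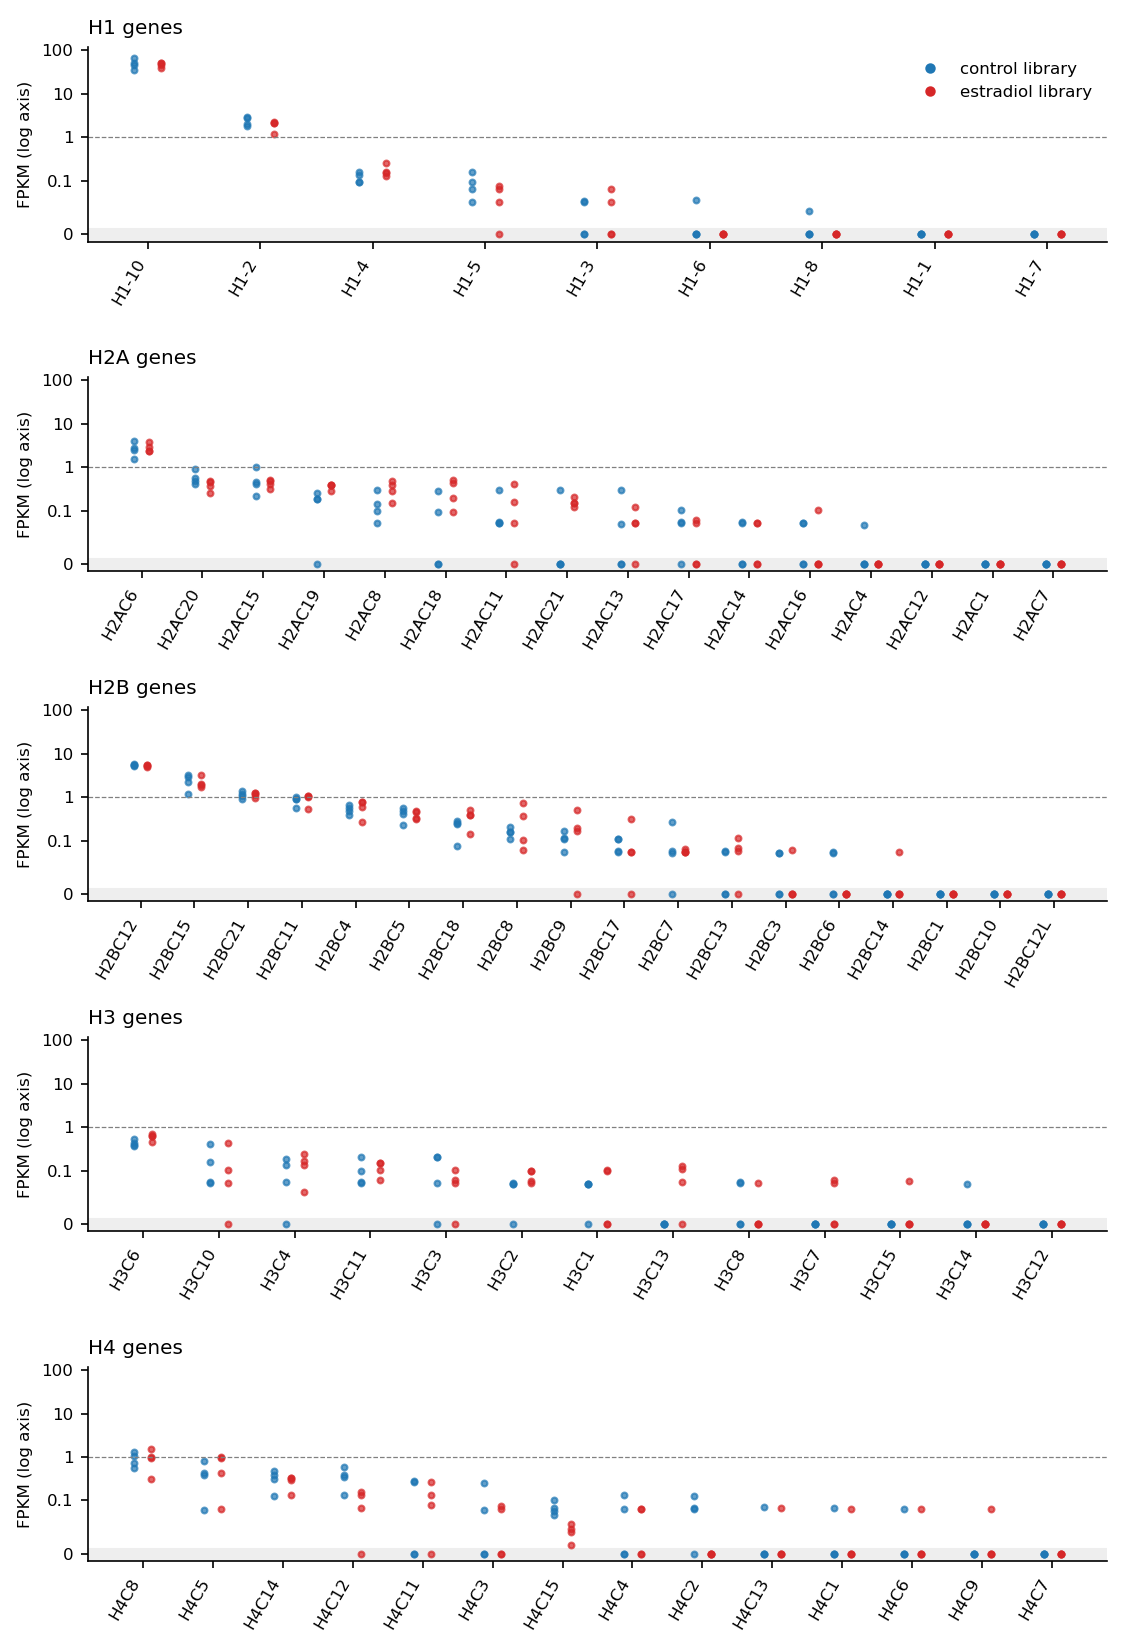
FPKM of each of the 70 histone genes (y axis, logarithmic, with values of 0 drawn in the grey band) in the 4 control (blue) and 4 estradiol (red) libraries, by type. Each point is 1 library and the dashed line is 1 FPKM; 6 genes averaged above it, and H1-10 (48.6) lies far above the highest core gene, H2BC12 (5.45).

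Between estradiol and control, none of the histone genes described passed the test. Of the 6 with a mean of at least 1 FPKM, 0 had a limma adjusted p under 0.05, where the share over all 10720 genes tested was 0.0%. At an unadjusted limma p under 0.05 the count was also 0 of 6, against 26 genes (0.243%) in all, and limma-voom on the recovered reads called 0 genes with 22 under that unadjusted p. The libraries of the 2 groups overlapped in all 6, where 0.532% of the genes tested had groups that did not. The median log2 fold change of the 6, on the log2(FPKM + 1) scale and as estradiol minus control, was -0.04, with 2 above and 4 below 0. The limma adjusted p was 0.999989 for each of the 6. The intervals below are 95% intervals of that fold change from limma.

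H1-10, also written H1x, is a replication-independent linker histone. It stood at 66.2, 47.1, 35.8 and 50.9 FPKM in the control libraries and at 52.4, 50.4, 45.5 and 40.3 in the estradiol libraries. Both ends of the range were control libraries, control 1 the highest and control 3 the lowest. The fold change was -0.06 (-0.44 to 0.33). The antisense transcript H1-10-AS1 stood at 0.364 ± 0.0587 FPKM in the control and 0.310 ± 0.0697 in the estradiol libraries (SD, n = 4 each). The sources used here do not say whether the counting used strand, so its reads cannot be told apart from those of H1-10 where they overlap.

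H1-2 was the highest of the replication-dependent linker genes, which lie in the histone cluster of chromosome 6. It stood at 2.75, 2.00, 1.86 and 2.95 FPKM in the control libraries and at 2.09, 2.13, 2.29 and 1.20 in the estradiol libraries, from 34 to 86 reads each. Its fold change of -0.21 (-0.56 to 0.13) was the furthest from 0 of the 6 and had the smallest unadjusted limma p, 0.194 (adjusted p = 0.999989). The other linker genes described were low. H1-4 stood at 0.122 ± 0.0323 against 0.176 ± 0.0569 FPKM (exact two-sided permutation p = 0.2, n = 4 each), from 3 to 8 reads a library, and H1-5 at 0.0873 ± 0.0529 against 0.0429 ± 0.0340 (exact permutation p = 0.229), from at most 5. The 9 H1 genes together summed to 52.6 ± 13 FPKM in the control and 49.3 ± 5.79 in the estradiol libraries (SD, n = 4 each), and H1-10 made up 95.3% of that.

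Among the H2A genes, which encode the partner of H2B in the nucleosome, H2AC6 alone reached 1 FPKM. It stood at 3.92, 2.52, 1.59 and 2.75 FPKM in the control libraries and at 2.41, 3.75, 2.94 and 2.34 in the estradiol libraries, from 31 to 80 reads. The highest and the lowest were both control libraries, and the fold change was 0.08 (-0.34 to 0.50). H2AC6 made up 57.0% of the H2A sum, which was 4.61 ± 1.29 FPKM in the control and 5.13 ± 0.946 in the estradiol libraries (SD, n = 4 each). Of the 16 H2A genes, 4 were above 0 in all 8 libraries and 3 in none.

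The lower H2A genes rested on few reads. H2AC20 stood at 0.593 ± 0.224 against 0.393 ± 0.104 FPKM, from 5 to 18 reads, and H2AC15 at 0.524 ± 0.344 against 0.429 ± 0.0891, from 4 to 20 reads (SD, n = 4 each). Neither differed beyond the spread between libraries (exact permutation p = 0.114 and 0.83). H2AC19 stood at 0.190, 0.189, 0.250 and 0 FPKM in the control libraries and at 0.382, 0.392, 0.381 and 0.290 in the estradiol libraries. Every estradiol library was above every control library, with no more than 8 reads in any, and the exact permutation p was 0.0286 (unadjusted), the smallest that 70 relabellings of 4 against 4 can give. H2AC18 and H2AC19 are near-identical copies: 96.8% of the 100-base stretches of H2AC19 also occur in the gene annotated as its copy, so how reads were divided between them is uncertain. The sum of both copies was 0.477, 0.283, 0.250 and 0 in the control and 0.812, 0.897, 0.476 and 0.483 in the estradiol libraries. The sums of the groups overlapped only just, at 0.477 in control 1 and 0.476 in estradiol 3. Their means were 0.252 ± 0.196 and 0.667 ± 0.219, beside 0.157 ± 0.109 and 0.361 ± 0.0478 for H2AC19 alone (SD, n = 4 each). Neither copy had more than 9 reads in a library, and their sum was not tested.

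H2BC12 was the highest of the 61 core histone genes described. It stood at 5.45, 5.42, 5.29 and 5.88 FPKM in the control libraries and at 5.52, 5.63, 5.07 and 5.32 in the estradiol libraries, from 167 to 208 reads. Every library lay within that narrow band, and the fold change was -0.03 (-0.19 to 0.14). Its counted length was 887 bases while its RefSeq span is 8566 and covers H4C9, and 28.4% of the 100-base stretches of its coding part also occur elsewhere, in H2BC12L among others, so part of its reads could belong to other genes.

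H2BC15 and H2BC21 were the other H2B genes above 1 FPKM. H2BC15 stood at 2.91, 2.28, 1.18 and 3.24 FPKM in the control and at 1.98, 1.93, 3.19 and 1.71 in the estradiol libraries, a range in which both ends were control libraries. Its fold change was -0.06 (-0.54 to 0.41). H2BC21 stood at 1.07, 1.36, 0.911 and 1.16 FPKM in the control and at 1.13, 1.24, 1.22 and 0.951 in the estradiol libraries, with a fold change of 0.01 (-0.19 to 0.21). The H2B sum was 11.5 ± 1.44 FPKM in the control and 11.8 ± 0.619 in the estradiol libraries, of which H2BC12 made up 46.7%. H2BC11 came next at 0.835 ± 0.192 against 0.918 ± 0.259 FPKM (exact permutation p = 0.514, n = 4 each). Of the 18 H2B genes, 8 were above 0 in all 8 libraries, the most of any type.

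By level, the 6 genes came in the order H1-10, H2BC12, H2AC6, H2BC15, H1-2 and H2BC21. The ranges of H2AC6, H2BC15 and H1-2 overlapped over most of their length, and H2BC21 overlapped the low ends of H2BC15 and H1-2. H2BC12 overlapped none of its neighbours.

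**Figure D3:**
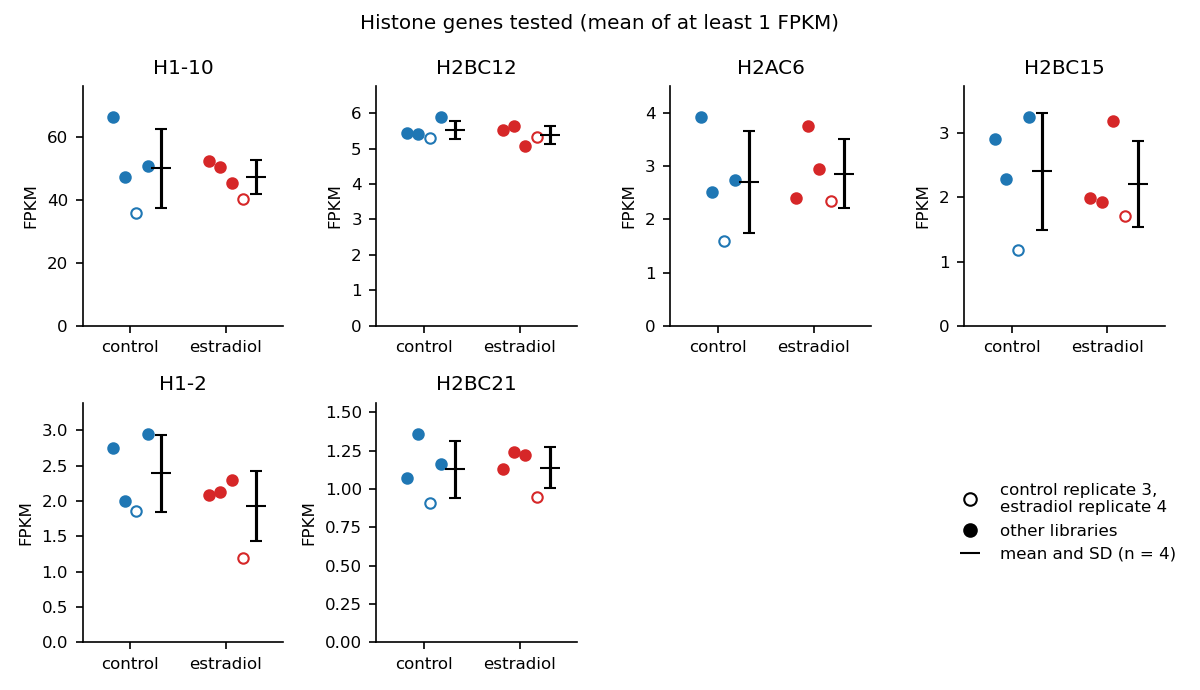
FPKM (y axes, linear and starting at 0) of the 6 histone genes with a mean of at least 1 FPKM in each control (blue) and estradiol (red) library, with the mean and SD (n = 4). Open points are control 3 and estradiol 4, which are the 2 lowest of the 8 libraries in every panel but that of H2BC12.

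No H3 gene reached 1 FPKM. H3C6 was the highest, and stood at 0.367, 0.429, 0.533 and 0.390 FPKM in the control libraries and at 0.614, 0.443, 0.677 and 0.630 in the estradiol libraries, from 39 to 72 reads. Of the estradiol libraries 3 lay above every control library and estradiol 2 lay among them (exact permutation p = 0.0571, n = 4 each, unadjusted). The counted length of H3C6 was 2700 bases, and it had 424 reads in all, beside 486 for H1-2 at a higher level per length. H3C10 stood at 0.170 ± 0.173 against 0.147 ± 0.194 FPKM, H3C4 at 0.0938 ± 0.0830 against 0.144 ± 0.0876, and H3C11 at 0.101 ± 0.0701 against 0.117 ± 0.0446 (SD, n = 4 each), with exact permutation p of 0.771, 0.429 and 0.600. The annotated coding part of H3C4 also occurs in a second annotated gene, so the level of H3C4 is uncertain. The 13 H3 genes summed to 1.02 ± 0.219 FPKM in the control and 1.31 ± 0.157 in the estradiol libraries.

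Nearly all H4 genes encode the same protein from separate loci. None reached a mean of 1 FPKM. H4C8 stood at 1.06, 1.29, 0.717 and 0.551 FPKM in the control libraries and at 1.5, 1.02, 0.311 and 0.946 in the estradiol libraries, from 5 to 24 reads, and both ends of that range were estradiol libraries (exact permutation p = 0.943, n = 4 each). H4C5 stood at 0.419 ± 0.303 against 0.603 ± 0.437 FPKM, H4C14 at 0.325 ± 0.147 against 0.269 ± 0.0928, and H4C12 at 0.362 ± 0.186 against 0.0880 ± 0.0697 (SD, n = 4 each), with exact permutation p of 0.429, 0.571 and 0.0857. All 100-base stretches of the coding part of H4C12 also occur in H4C11, so how reads were divided between them is uncertain. The annotated model of H4C12 is that part alone, of 312 bases, while 387 were counted. H4C12 stood at 0.131, 0.585, 0.344 and 0.388 FPKM in the control and at 0.132, 0.155, 0.0656 and 0 in the estradiol libraries. H4C11 stood at 0.262, 0, 0.274 and 0 against 0.131, 0.0769, 0 and 0.265. Added library by library, every control sum lay above every estradiol sum. Neither gene had more than 9 reads in a library, and that sum was formed after its values were seen and was not tested. The 14 H4 genes summed to 2.46 ± 0.490 FPKM in the control and 2.17 ± 0.908 in the estradiol libraries.

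Below 1 FPKM, 54 members were above 0, and in 2 of them (3.7%) the groups did not overlap, where 1.51% of the 12751 genes at such levels had groups that did not. These were H2AC19, above, and H4C15, which is named because of its values and falls outside the rule for named genes. H4C15 stood at 0.0669, 0.0567, 0.1 and 0.0471 FPKM in the control and at 0.0191, 0.0225, 0.00954 and 0.0291 in the estradiol libraries, from 36 reads in all (exact permutation p = 0.0286, unadjusted, the smallest possible). By the annotated models it is a copy of H4C14, with 97.1% of its 100-base stretches in both. The longest of its models has 1694 bases, fewer than were counted, so the share holds for the models only. The sum of the copies overlapped between the groups, at 0.393 ± 0.167 FPKM in the control and 0.289 ± 0.0866 in the estradiol libraries. The counted length was 396 bases for H4C14 and 2662 for H4C15, so a read of H4C15 adds far less to that sum. In reads, H4C14 had 6, 5, 7 and 2 in the control and 5, 4, 5 and 2 in the estradiol libraries. H4C15 had 7, 6, 10 and 5 against 2, 2, 1 and 3. The FPKM sum thus cannot show what pooling the copies does to the difference. H2AC19 and H4C15 thus differed in opposite directions, and by the annotated models each has a near-identical copy. The RefSeq span of H4C15 is 16753 bases and overlaps H2AC19, so they do not stand for separate places in the genome. With no filter on low values, 7 of the 60 members above 0 (11.7%) had an unadjusted limma p under 0.05, against 1.86% of all 23471 genes above 0 and 3.18% of those with a mean under 1 FPKM. All 7 had a mean under 1 FPKM, so beside the 3.18% they are 7 of the 54 members at such levels. H3C2, H3C13 and H4C2 rested on 9, 5 and 4 reads over the 8 libraries. H2AC19, H3C6, H4C12 and H4C15 had 42, 424, 27 and 36. H2AC19, H3C2, H3C6 and H3C13 were the higher with estradiol, and H4C2, H4C12 and H4C15 the lower. Some of the 7 are named here because of their values. The limma adjusted p was 1.00 for each, and by exact permutation test only H2AC19 and H4C15 of the 54 had a p under 0.05.

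The spread between libraries differed widely among the members. As an SD of log2(FPKM + 1) within groups it was 0.06 in H2BC12, 0.11 in H2BC21, 0.25 in H1-2, 0.28 in H1-10, 0.32 in H2AC6 and 0.36 in H2BC15. Ranked among all genes tested, these lay at the percentiles 3.7, 21.0, 79.2, 89.0, 95 and 98.0. The H2B genes thus held both the narrowest and the widest of the 6.

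Counting error is a part of that spread, though an SD observed over 8 libraries can fall below the value that counting is expected to give. Over the 27 members with at least 20 reads in all, the SD of the reads over the 8 libraries, at a common depth, was above the SD that counting alone gives in 23 and above 1.5 times it in 15, with a median ratio of 1.59. The highest ratio was that of H1-10 (9.95), which had at least 2035 reads in each library, so that little of its spread was counting error. H2BC4, H2BC15, H2AC6 and H1-2 stood at 2.35, 2.24, 2.04 and 1.94. The lowest ratio was that of H2BC12 at 0.603.

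**Figure D4:**
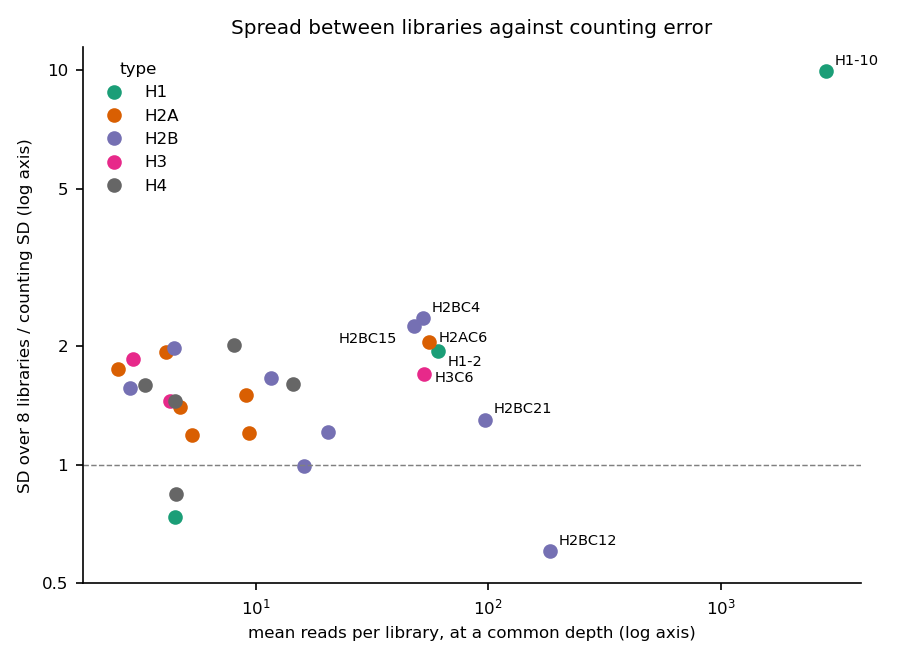
Ratio of the SD over 8 libraries to the SD expected from counting alone (y axis, log scale) against mean reads per library at a common depth (x axis, log scale) for the 27 histone genes with at least 20 reads in all, coloured by type. The dashed line is a ratio of 1: H1-10 (9.95) stands far above it and H2BC12 (0.603) below it.

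A part of the spread ran through the same 2 libraries. Control 3 and estradiol 4 were the 2 lowest of the 8 in 5 of the 6 genes tested (83.3%), all but H2BC12, where 43.9% of all genes tested had that pair lowest and 34.6% had it highest. H1-10 averaged 38.0 FPKM in the pair and 52.1 in the other 6 libraries, H2AC6 1.96 and 3.05, H2BC15 1.45 and 2.59, and H1-2 1.53 and 2.37. The sum of the 70 histone genes was 53.4 and 59.5 FPKM in the pair and 69.0 to 91.3 in the others. The pair held 1 library of each group, and neither library is set apart by a label. The low members did not all follow: H2BC4 averaged 0.728 FPKM in the pair and 0.508 in the others, and H3C6 0.582 and 0.487. Without the pair, the fold changes of H1-10, H1-2, H2AC6, H2BC12, H2BC15 and H2BC21 were -0.13, -0.16, -0.01, -0.04, -0.19 and 0.00, with 0 genes called by limma over the whole table and 416 at an unadjusted p under 0.05.

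By GENCODE v29, transcript GC content was 68.6% for H1-10, 61.2% for H2BC12, 57.5% for H1-2, 48.0% for H2BC21, 42.0% for H2AC6 and 39.5% for H2BC15, beside a median of 47.9% over all genes tested. By these models, the 2 genes with the widest spread, H2AC6 and H2BC15, lay below that median and H1-10 far above it. When a smooth trend on GC content was removed from each library, the median within-group SD of the histone genes tested was 0.164 in place of 0.264. The drop was not particular to histone genes. Over all genes tested, the median standard error of the fold change was 0.0584 in place of 0.1245. The GC values are those of the annotated models. For H2AC6 the model of 1668 bases is far longer than the 519 bases that were counted, and for H2BC15 the lengths are 4137 and 542. The GC content of the counted bases of these genes may therefore differ from the values given.

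Histone genes whose symbols lie outside the rule include variants that replace core histones outside S phase or at particular sites, such as H2A.Z, H3.3 and CENPA, and some replication-dependent genes, such as H2AW. Of 19 measured, 9 were tested and 0 rose or fell by limma, with a median log2 fold change of -0.003. H2AZ1, which encodes H2A.Z, was far above any of the 70 genes, at 207 ± 20.5 FPKM in the control and 203 ± 2.96 in the estradiol libraries. H3-3B, one of the genes of H3.3, stood at 128 ± 14.2 against 131 ± 7.78 (SD, n = 4 each). H2AW stood at 7.01 ± 1.86 against 5.89 ± 1.45, with a fold change of -0.21 (-0.64 to 0.22), and CENPA, the H3 variant of centromeres, at 11.4 ± 0.952 against 11.8 ± 0.254. Control 3 and estradiol 4 were the lowest pair in 5 of the 9 and the highest in 1.

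**Figure D5:**
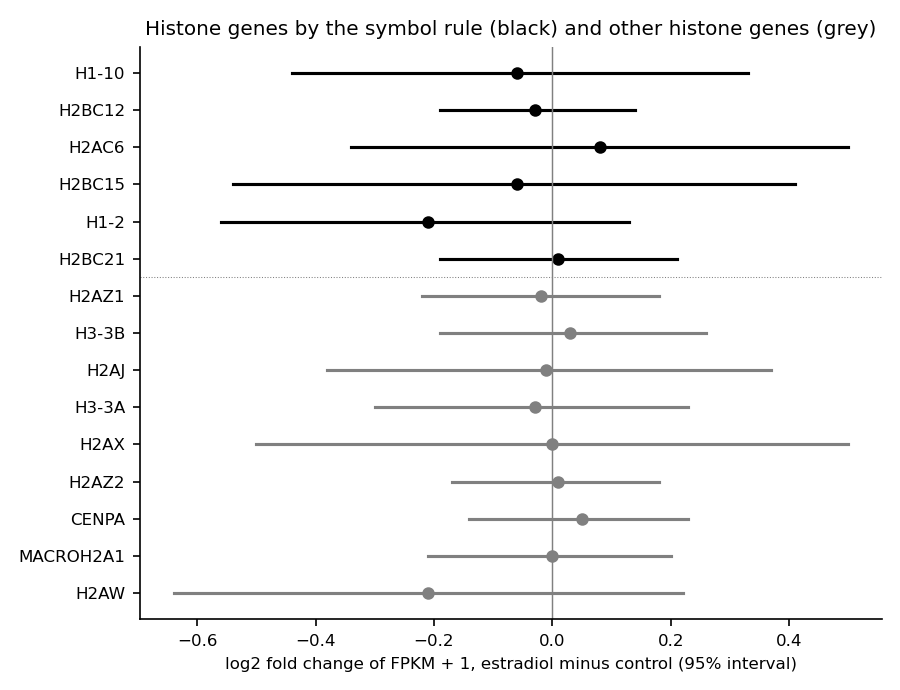
Log2 fold change of FPKM + 1, estradiol minus control (x axis), with its 95% interval from limma, for the 6 histone genes tested (black) and the 9 other histone genes tested (grey). Every interval includes 0; H1-2 and H2AW lie furthest from it, both at -0.21.

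The genes that switch on histone transcription in S phase were also tested, and 0 of 11 rose or fell by limma, with a median fold change of 0.015. HINFP, the factor that binds H4 promoters, stood at 9.38 ± 1.02 against 8.94 ± 1.40 FPKM and YY1 at 17.6 ± 1.34 against 16.9 ± 1.02. CCNE2, a cyclin that drives CDK2 at the start of S phase, stood at 1.43 ± 0.346 against 1.17 ± 0.278, and E2F1 at 4.73 ± 0.777 against 4.22 ± 0.494 (SD, n = 4 each). NPAT, the coactivator that CDK2 phosphorylates at histone loci, is named after its values were seen: it stood at 2.8, 3.06, 4.43 and 2.88 FPKM in the control and 3.07, 2.87, 2.93 and 4.54 in the estradiol libraries. NPAT was thus highest in control 3 and estradiol 4. That pair was the highest in 5 of the 11 genes of the list and the lowest in 4, HINFP and E2F1 among the lowest.

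Of 26 genes that process or decay histone mRNA, all tested, 0 rose or fell by limma, with a median fold change of 0.013. SLBP, which binds the hairpin, stood at 44.7 ± 3.00 FPKM in the control and 46.2 ± 4.32 in the estradiol libraries, and SNRPB, a core protein of small nuclear ribonucleoproteins, at 192 ± 29.9 against 187 ± 34.3. ZNF473, a component of the histone cleavage machinery, stood at 2.90 ± 0.280 against 3.19 ± 0.172, and CSTF3, a subunit of the cleavage stimulation factor, at 21.7 ± 2.40 against 24.0 ± 4.02 (SD, n = 4 each). SLBP was at its highest in control 3 and estradiol 4, at 48.6 and 52.0 FPKM, and SNRPB at its lowest there, at 149 and 139. Of the 26, that pair was lowest in 11 and highest in 10.

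Of 25 histone chaperones and acetyltransferases 23 were tested and 0 rose or fell by limma (median 0.004). RBBP7, a histone-binding subunit of several chromatin complexes, stood at 42.4 ± 3.71 against 42.2 ± 4.08 FPKM and SSRP1, a subunit of FACT, at 41.5 ± 6.58 against 41.3 ± 4.47. NASP, a chaperone of H1 and H3, stood at 11.9 ± 1.04 against 12.7 ± 0.796, and HAT1, which acetylates new H4, at 11.3 ± 3.40 against 12.8 ± 3.59 (SD, n = 4 each).

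DNA replication genes mark the S phase in which most histone mRNA is made. Of 34 measured, 29 were tested and 0 rose or fell by limma, with a median fold change of -0.003 beside a median over all genes tested of 0.00. PCNA, the sliding clamp, stood at 35.4 ± 3.52 against 34.4 ± 6.65 FPKM, RRM1, a subunit of ribonucleotide reductase, at 17.6 ± 1.51 against 18.7 ± 2.56, and CDC6, which loads the replicative helicase, at 12.7 ± 0.803 against 13.7 ± 0.963. TYMS, thymidylate synthase, stood at 9.47 ± 0.238 against 10.4 ± 0.441 (SD, n = 4 each), and its limma adjusted p was 0.999989. It was the only gene of the 29 whose groups did not overlap, where 0.532% of all genes tested had groups that did not. TYMS was among the genes named for a small p. Control 3 and estradiol 4 were the lowest pair in 10 of the 29 and the highest in 6, PCNA among the latter, at 40.5 and 44.1 FPKM.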

How the data were processed

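RNA of 8 libraries (4 control, 4 estradiol) was measured by RNA-seq. The authors deposited FPKM values for 34415 gene symbols in every library. The reads had passed through fastp 0.20.1 and HTSeq, per the submitters' processing notes. Aligner, build, annotation and strand setting: not given in the sources used here. Groups and replicate numbers came from the titles. Whole reads were recovered from the steps between values, and 152348 values above 0 (100.0%) came out whole within a relative tolerance of 1e-06.

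The 10720 genes with a mean of at least 1 FPKM were tested two-sided with limma (version 3.58.1, R version 4.3.3) on log2(FPKM + 1), using its mean-variance trend, without a block and with Benjamini-Hochberg adjustment over all of them. That scale understates changes of low genes. Members below 1 FPKM got an exact two-sided permutation test over 70 relabellings, unadjusted. The rule for members found 72 genes, of which 1 is not reported here. The members and lists were chosen with earlier results of these data known. Named were the 4 highest members of each type, those tested with the largest spread or smallest p, and, of each other list, the 2 highest and the 2 with the smallest p. In all, 19 alternative settings were run. Other steps used Python 3.11.15 (pandas 2.3.3, numpy 2.4.6, matplotlib 3.10.9, scipy 1.17.1). Promoters came from RefSeq and transcript models from GENCODE v29.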

Additional observations from a re-analysis of the deposited data

Results flagged for a closer look

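In 90 groups of 4 libraries, the highest and lowest value were compared with the rest by Dixon's test, which flags about 1 in 20 groups by chance. Among histone genes, H2BC11 stood at 0.531 FPKM in estradiol 1 and at 1.01 to 1.07 in the other estradiol libraries. H2AC19 stood at 0.290 FPKM in estradiol 4, against 0.381 to 0.392, and H4C14 at 0.130 in the same library, against 0.302 to 0.322. These 3 rest on 20 reads or fewer in each library.

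The other outlying values were of genes that act with histones, all in control 3 or estradiol 4. HAT1 stood at 16.4 FPKM in control 3, against 9.30 to 9.81 in the other control libraries, and at 18.2 in estradiol 4, against 10.7 to 11.5. SSRP1 stood at 31.7 FPKM in control 3, against 44.1 to 45.4, and at 34.7 in estradiol 4, against 43.1 to 44.3. E2F1 stood at 3.58 FPKM in control 3, against 4.97 to 5.24.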

How the results depend on the processing

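The counts of genes called, over the whole table and among histone genes, were 0 under all 19 alternatives, with smallest adjusted p of 0.0809 and 0.791. The fold changes of H1-2 and H2BC12 stayed at or below 0 in every alternative run. Those of the other 4 took both signs or 0 when single libraries were left out: H2AC6 reached 0.23 without control 1 and -0.08 without control 3, H1-10 reached 0.09 and -0.20 without those same libraries, and H2BC15 0.06 without control 4 and -0.26 without control 3. No pairing followed from the replicate numbers: the deviations of same-numbered libraries correlated at 0.616, 0.0728, -0.478 and -0.737, and with a replicate block 0 genes were called, with 11 against 26 at an unadjusted p under 0.05. The median within-group SD of the histone genes tested, 0.264, was 0.095 with no filter and 0.167 with a filter at 5 FPKM. It was 0.164 with the GC trend removed and 0.173 without control 3 and estradiol 4 together. Over all genes tested, the median standard error of the fold change also fell under these last settings, from 0.1245 to 0.0584 and 0.0646. Leaving out single libraries gave a histone SD of 0.225 to 0.284. Few reads limited what could be seen in members below 1 FPKM. Of the 54 above 0, 25 had 10 reads or fewer in all, and a further 10 members had none.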
